A study of Homo sapiens with 6 samples.

Results

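The genes described are 7 transcripts known as targets of the transcription factor NF-kB, namely the cytokine genes IL1A and IL1B, the chemokine genes CXCL2 and CXCL8, the adhesion receptor gene ICAM1, the apoptosis inhibitor gene BIRC3 and RELB, which encodes a subunit of NF-kB itself. They were taken by name from the authors' deposited table of changed genes, where they are 7 of 426. One group was MKN28 cells with short hairpin RNA against VPS35, the core subunit of the retromer complex that returns membrane proteins from endosomes, and the other was MKN28 cells with a control vector. MKN28 is a human gastric cancer cell line. Each group held 3 samples that the series' design text calls biological replicates. No drug, cytokine or other agent is named in the labels for either group, and they do not say whether the shVPS35 samples share a hairpin sequence or a clone, or whether the vector carried a non-targeting hairpin. The comparison asks which transcripts differ once VPS35 is depleted.

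NF-kB is a family of dimers that inhibitor proteins hold in the cytoplasm until receptors for interleukin 1, tumour necrosis factor or microbial products activate the kinases that release them. The freed dimers bind short kappaB sequences near their targets, among them genes of inflammatory cytokines, chemokines, adhesion receptors and survival proteins, and also genes of the pathway's own subunits and inhibitors. In gastric epithelium, NF-kB targets such as CXCL8 are known from the response to Helicobacter pylori. The name of the gene group comes from this general knowledge. No value in the table measures NF-kB activity.

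Sequence before the transcription start was read for 6 of the 7 genes, all but RELB, from the RefSeq promoter sequences on GRCh38.p14. Both strands of the 250 bases before each start were searched for 3 motifs, because the genes moved in the same direction and share a named regulator. The first was the kappaB consensus. The second was GGAANTTCC, a shorter kappaB form that overlaps the consensus in some sites and was chosen after these sequences had been read. The third was TGANTCA, the motif of AP-1, the FOS and JUN family of factors. The sites are shown 5′ to 3′ on the strand of the gene, with the matched bases in capitals.
CXCL2 kappaB site: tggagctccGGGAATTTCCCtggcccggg
CXCL8 kappaB site: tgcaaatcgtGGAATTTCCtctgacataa
ICAM1 kappaB site: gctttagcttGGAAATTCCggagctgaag
BIRC3 distal kappaB site: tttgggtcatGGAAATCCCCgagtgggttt
BIRC3 proximal kappaB site: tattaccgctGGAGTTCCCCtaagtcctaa
CXCL8 AP-1 site: aggaagtgtgaTGACTCAggtttgccctg
IL1A distal AP-1 site: gcgaagaagacTGACTCAggcttaagctg
IL1A proximal AP-1 site: tcattggcgttTGAGTCAgcaaaggtatt

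The CXCL2 site lies at chr4:74099254-74099282 on the minus strand, where matches to the consensus on both strands and to GGAANTTCC overlap in the 11 capitals. The CXCL8 sites lie at chr4:73740468-73740496 for kappaB and chr4:73740421-73740449 for AP-1, both on the plus strand. The ICAM1 site lies at chr19:10270924-10270952 on the plus strand. The BIRC3 sites lie at chr11:102317275-102317304 and chr11:102317339-102317368 on the plus strand. The IL1A sites lie at chr2:112784488-112784516 and chr2:112784438-112784466 on the minus strand and come from the second of 2 RefSeq starts. With the first start only the distal IL1A site falls in the window. GENCODE 29 places the starts of these 5 genes farther upstream than the RefSeq starts used here, so the CXCL2 and ICAM1 sites and both IL1A sites are inside the annotated gene there.

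The kappaB consensus was present in CXCL2 and BIRC3, 2 of the 6 genes, and in 9.96% of all 35116 RefSeq promoters over the same 250 bases. GGAANTTCC was present in CXCL2, CXCL8 and ICAM1 and in 0.826% of all promoters. It was chosen after these same sequences had been read, so this contrast follows from the choice and is no evidence of enrichment. TGANTCA was present in IL1A and CXCL8 and in 6.57% of all promoters. None of the 3 motifs was in the IL1B window, which says only that these letters are not within those 250 bases. A match describes the sequence and was not measured as a bound site.

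The stretches of CXCL8 and BIRC3 upstream of the GENCODE start hold all their matches and are given whole, since they show how the sites are spaced. The CXCL8 stretch is chr4:73740319-73740505 and the BIRC3 stretch chr11:102317234-102317449, both on the plus strand.
CXCL8: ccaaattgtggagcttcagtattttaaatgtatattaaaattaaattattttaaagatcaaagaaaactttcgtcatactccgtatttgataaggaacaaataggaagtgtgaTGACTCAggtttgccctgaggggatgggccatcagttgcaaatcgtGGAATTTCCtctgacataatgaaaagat
BIRC3: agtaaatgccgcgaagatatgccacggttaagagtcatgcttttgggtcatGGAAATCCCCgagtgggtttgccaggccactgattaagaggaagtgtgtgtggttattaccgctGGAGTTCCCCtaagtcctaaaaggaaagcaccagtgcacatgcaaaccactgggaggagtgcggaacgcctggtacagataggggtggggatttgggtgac

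**Figure D1:**
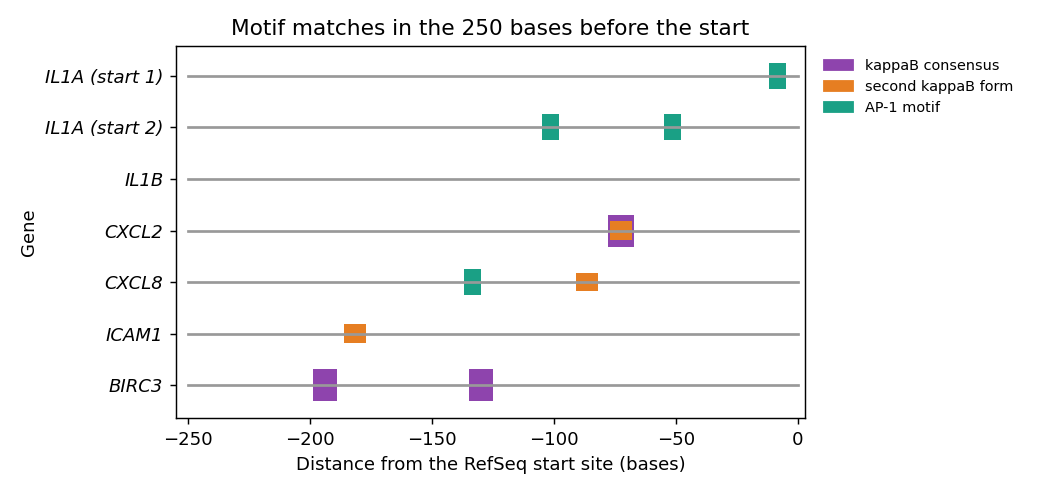
Matches to the 3 motifs on either strand (coloured boxes) in the 250 bases before the RefSeq start of each gene, against distance from the start in bases. CXCL2, CXCL8, ICAM1 and BIRC3 have a kappaB match, IL1A and CXCL8 an AP-1 match, and IL1B none of the 3.

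All 7 genes were lower in shVPS35 cells than in vector cells, and in each of them every shVPS35 sample lay below every vector sample. The interleukin genes and CXCL8 kept the smallest part of their vector level, between 10.3% and 18.1%, while CXCL2, BIRC3, RELB and ICAM1 kept between 34.9% and 47.9%. The table lists genes only because they passed the authors' limits on these same 6 samples, so direction, separation and tests of the members describe that selection and are not independent evidence. By the authors' calls 2.65% of the genes tested were listed, and 1.47% of the genes tested were listed as lower. The groups did not overlap in 93.4% of all listed genes and in 91.9% of those listed as lower, so the 7 of 7 here is close to what the whole table shows.

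The values are the authors' deposited expression values, given without a unit in the header, so levels are compared between samples of a gene and not between genes. Their depth is unknown. VPS35 was checked first. It averaged 13.4 ± 1.97 in shVPS35 cells and 65.3 ± 1.67 in vector cells (SD, n = 3 each), which left 20.6% of the vector level. Summed over all listed genes the values were 4696 to 5004 in shVPS35 samples and 5029 to 5130 in vector samples. Epithelial identity of the line could not be read from these data, since none of 8 epithelial markers is in a table of changed genes only. As in any bulk sample, fewer expressing cells and less RNA per cell cannot be told apart.

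**Figure D2:**
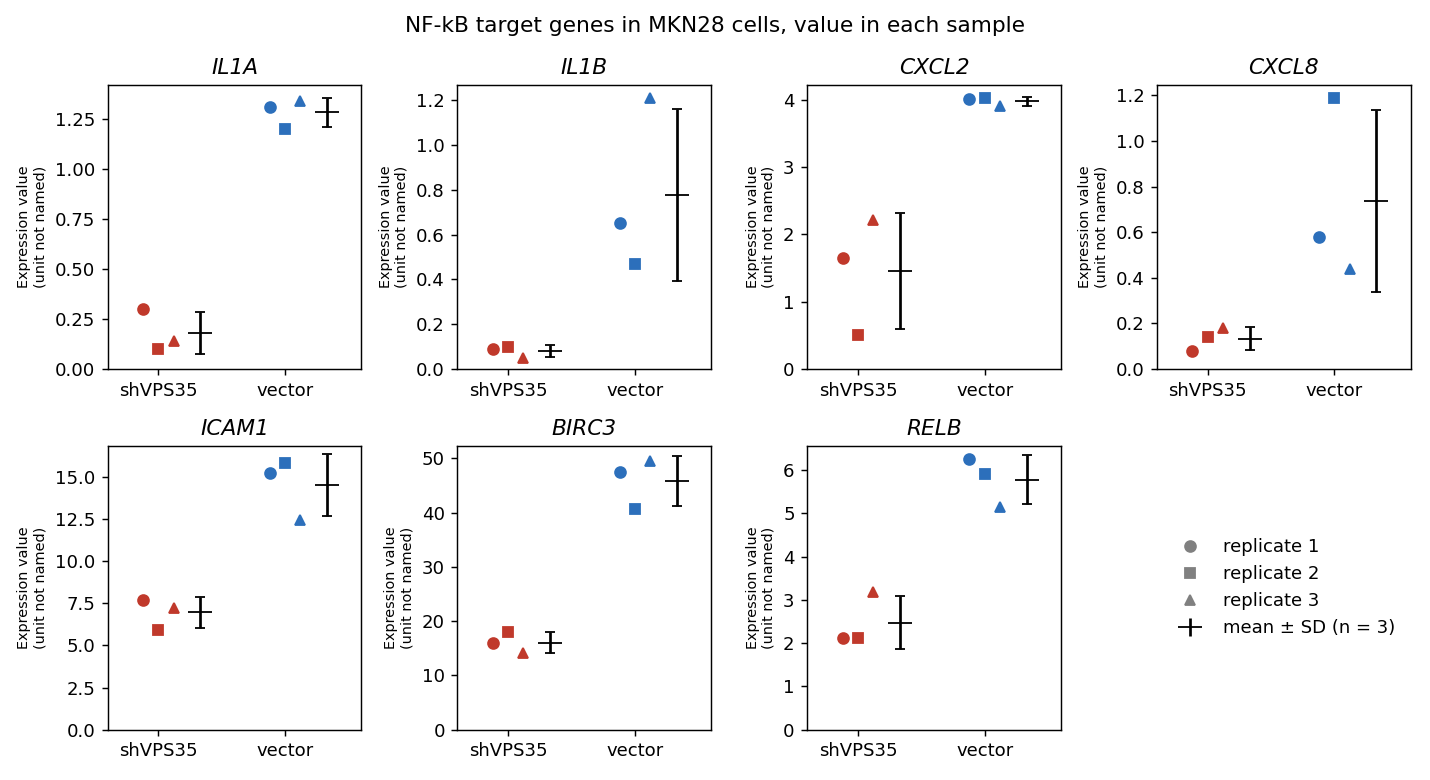
Expression value of each gene (y axis, unit not named in the table) in the 3 shVPS35 samples (red) and the 3 vector samples (blue), with symbols for the replicate number and bars for the mean ± SD (n = 3). In all 7 panels the red points lie below the blue points, with the widest red spread in CXCL2, from 0.51 to 2.21.

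IL1A encodes interleukin 1 alpha, a cytokine that epithelial cells hold in the cytosol and release on damage, and that activates NF-kB in cells bearing its receptor. The gene (ENSG00000115008; GRCh38, chromosome 2, 112773915 to 112784590, minus strand) had values of 0.30, 0.10 and 0.14 in the shVPS35 samples, against 1.31, 1.20 and 1.34 in the vector samples. The lowest vector sample was 4.0 times the highest shVPS35 sample, and the vector samples lay close together with a coefficient of variation of 5.74%. IL1A averaged 0.180 ± 0.106 in shVPS35 cells and 1.28 ± 0.0737 in vector cells (SD, n = 3 each). Its difference after log2(value + 1) transformation was -0.96 ± 0.10 (SE; limma adjusted p = 9.1e-05), and the authors' deposited table gives a log2 fold change of -2.85. The transformed scale understates the change of genes with low values such as this one.

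IL1B encodes interleukin 1 beta, the secreted form that inflammasome caspases activate by cleavage and that signals through the same receptor. It is the neighbour of IL1A on chromosome 2, at 112829751 to 112836903 on the minus strand, with 45.2 kb and no other protein-coding gene between them. Its values were 0.09, 0.10 and 0.05 in the shVPS35 samples and 0.65, 0.47 and 1.21 in the vector samples. The vector samples spread 2.57-fold, unlike those of IL1A, and vector replicate 3 was the highest. The mean was 0.0800 ± 0.0265 in shVPS35 cells and 0.777 ± 0.386 in vector cells (SD, n = 3 each), so that 10.3% was left, the smallest share among the 7 genes. The transformed difference was -0.70 ± 0.15 (log2 of value + 1, SE; limma adjusted p = 0.00275). With 2 decimals in the table, values near 0.05 are given to 1 digit only.

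The chemokine genes CXCL8 and CXCL2 encode secreted attractants of neutrophils that act through the receptors CXCR1 and CXCR2. CXCL8, or interleukin 8 (ENSG00000169429; chromosome 4, 73740506 to 73743716, plus strand), had 0.08, 0.14 and 0.18 in the shVPS35 samples against 0.58, 1.19 and 0.44 in the vector samples. Vector replicate 2 stood above the other vector samples, and the groups were separated by a factor of 2.44 between the lowest vector and the highest shVPS35 value. CXCL8 averaged 0.133 ± 0.0503 in shVPS35 cells and 0.737 ± 0.399 in vector cells (SD, n = 3 each). Its log2(value + 1) difference was -0.59 ± 0.15 (SE; limma adjusted p = 0.00745), and the authors' deposited table gives it a log2 fold change of -2.74.

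CXCL2 (ENSG00000081041; chromosome 4, 74097035 to 74099293, minus strand) lies in the same chemokine cluster, 353 kb from CXCL8 with 7 protein-coding genes between them. It had 1.65, 0.51 and 2.21 in the shVPS35 samples against 4.01, 4.02 and 3.90 in the vector samples. The vector samples were nearly equal, with a coefficient of variation of 1.67%, while the shVPS35 samples differed 4.33-fold, with one of 59.5%. For comparison, the median coefficient of variation was 14.0% over the 110 listed genes with a vector mean of 2 to 8, and 22.0% over the 67 listed genes with a shVPS35 mean of 1 to 2. The low shVPS35 value came from replicate 2, in which VPS35 itself had its highest value of the group, 15.6. CXCL2 averaged 1.46 ± 0.866 in shVPS35 cells and 3.98 ± 0.0666 in vector cells (SD, n = 3 each), and the transformed difference was -1.09 ± 0.26 (limma adjusted p = 0.00493). Without shVPS35 replicate 2 the difference was -0.77 (limma adjusted p = 0.00235).

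ICAM1 encodes the adhesion receptor that binds leukocyte integrins, and its promoter is a much used example of NF-kB control. The gene (ENSG00000090339; chromosome 19, 10270835 to 10286615, plus strand) had values of 7.72, 5.94 and 7.21 in the shVPS35 samples and 15.26, 15.85 and 12.44 in the vector samples. Both groups spread by at most 1.3-fold, and the highest shVPS35 sample stayed below the lowest vector sample. The mean was 6.96 ± 0.917 in shVPS35 cells and 14.5 ± 1.82 in vector cells (SD, n = 3 each), or 47.9% of the vector level, the largest remaining share of the 7. The log2(value + 1) difference was -0.96 ± 0.12 (SE; limma adjusted p = 2.1e-04).

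BIRC3 encodes a ubiquitin ligase of the inhibitor of apoptosis family that modifies kinases of the tumour necrosis factor receptor complex and also restrains the kinase of the noncanonical NF-kB route. It is thus a target and a regulator of the pathway. The gene (ENSG00000023445; chromosome 11, 102317450 to 102339403, plus strand) had 16.06, 18.01 and 14.05 in the shVPS35 samples against 47.48, 40.70 and 49.51 in the vector samples. The groups were far apart relative to their spread, and BIRC3 had the smallest p of the 7, rank 51 of the 16063 genes tested, by the authors' deposited table. It averaged 16.0 ± 1.98 in shVPS35 cells and 45.9 ± 4.61 in vector cells (SD, n = 3 each), which gave a log2(value + 1) difference of -1.46 ± 0.11 (SE; limma adjusted p = 1.0e-05).

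The size of the fold change depended on how it was taken for 4 of the 7 genes. For BIRC3 the log2 ratio of the group means was -1.52, while the authors' deposited table gives a log2 fold change of -1.27, a gap of 0.25. Of the 151 listed genes with a group mean of 5 or more, 10 had a gap at least as large, and the median gap was 0.05. The ratio of means was -2.47 for CXCL8, -3.28 for IL1B and -1.45 for CXCL2, and the authors' deposited table gives -2.74, -3.07 and -1.65, so that the authors' fold was larger in size for CXCL8 and CXCL2 and smaller for IL1B and BIRC3. The 2 measures differed by less than 0.1 for RELB, ICAM1 and IL1A. The sources used here do not give the model behind the authors' fold change.

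RELB encodes an NF-kB subunit that pairs with the processed product of NFKB2 in the noncanonical route, and its own transcription is raised by canonical NF-kB. The gene (ENSG00000104856; chromosome 19, 45001430 to 45038198, plus strand) had 2.13, 2.11 and 3.19 in the shVPS35 samples and 6.26, 5.92 and 5.16 in the vector samples. Replicate 3 was the highest of the shVPS35 samples and the lowest of the vector samples, and the groups still did not overlap. RELB averaged 2.48 ± 0.618 in shVPS35 cells and 5.78 ± 0.563 in vector cells (SD, n = 3 each), with 42.9% of the vector level left. Its log2(value + 1) difference was -0.97 ± 0.15 (SE), with a limma adjusted p of 5.7e-04.

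**Figure D3:**
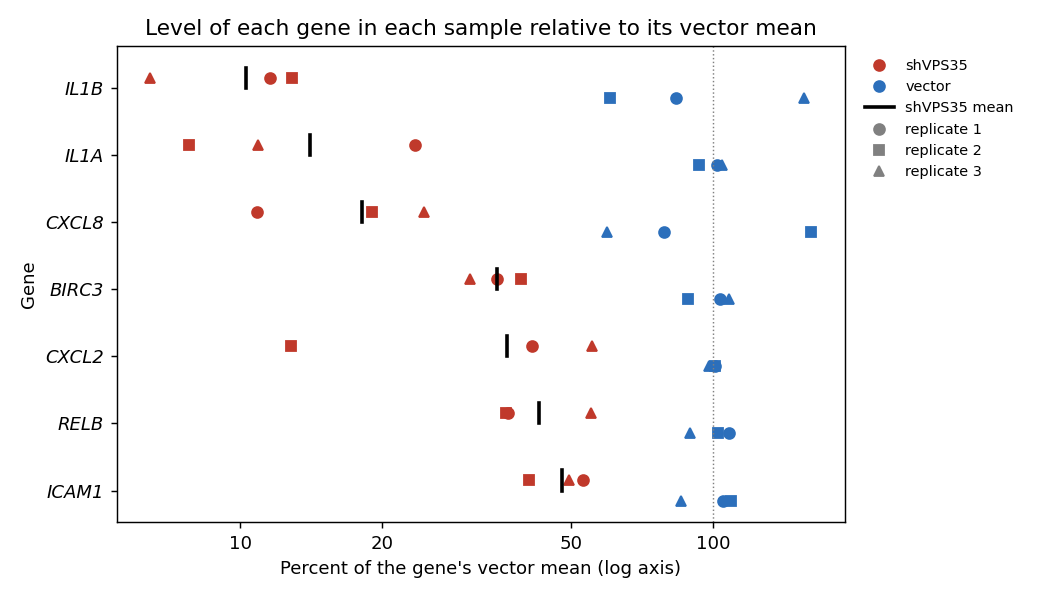
Value of each sample as a percent of the gene's vector mean (log axis) for shVPS35 samples (red, upper row of each gene) and vector samples (blue, lower row), with the shVPS35 mean as a black bar. Genes run from IL1B at the top, where 10.3% of the vector mean was left, to ICAM1 at the bottom with 47.9%.

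Set in order by the log2 ratio of the geometric means, the genes ran from IL1B (-3.23 ± 0.51, SE from 3 samples each) through IL1A (-2.99 ± 0.47), CXCL8 (-2.41 ± 0.55), CXCL2 (-1.69 ± 0.65), BIRC3 (-1.52 ± 0.13) and RELB (-1.25 ± 0.21) to ICAM1 (-1.06 ± 0.16). No gene in this order differed from the next beyond its spread. Exact 2-sided permutation tests of the 6 neighbouring pairs gave p from 0.40 to 1.0, or 0.84 to 1.0 after Benjamini-Hochberg adjustment over the 6 pairs, and the smallest p that 3 against 3 samples allow is 0.1. The pair with the widest step, CXCL8 against CXCL2, differed by -0.72 ± 0.85. The order also depends on the scale, because with 1 added to each value BIRC3 showed the largest difference and CXCL8 the smallest.

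The same limma model, fitted over all 426 listed genes, had an adjusted p below 0.05 for all 7 members and for 95.8% of the listed genes, 225 (52.8%) lower and 183 higher. In the authors' deposited table the median log2 fold change was -1.65 over the 7 members and -1.55 over the 236 genes listed as lower. By size of that fold change IL1B, IL1A and CXCL8 ranked 26, 35 and 39 among the 236 lower genes, CXCL2 ranked 104, and RELB, BIRC3 and ICAM1 ranked 158, 162 and 205. By p the order was nearly the opposite. BIRC3, ICAM1 and RELB had ranks 51, 380 and 939 among the 16063 genes tested, against 1374 for IL1A, 2483 for CXCL2, 2905 for IL1B and 2991 for CXCL8, all from the authors' deposited table.

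**Figure D4:**
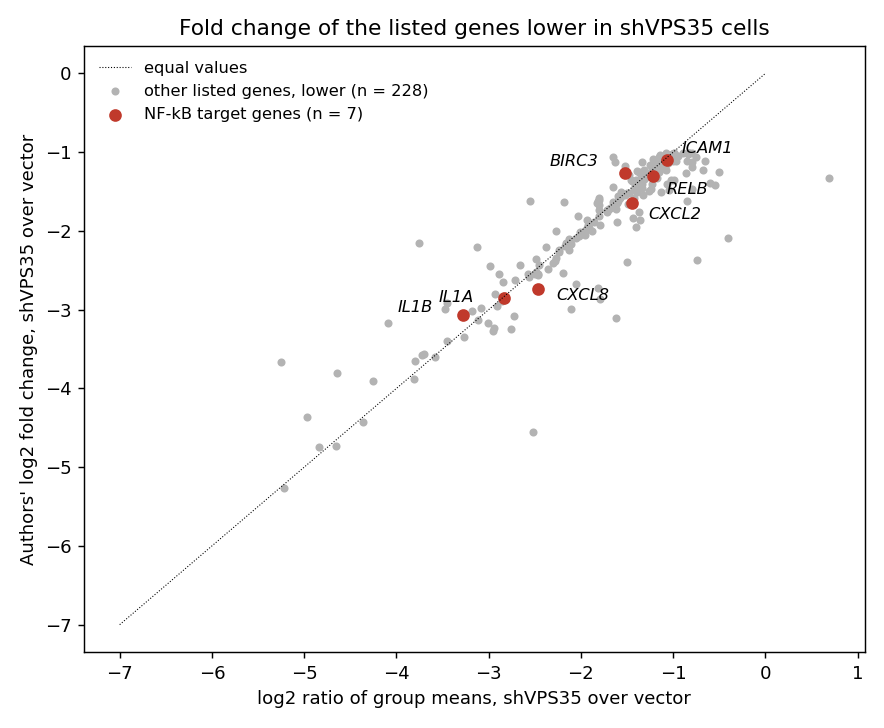
Log2 fold change of the authors' deposited table against the log2 ratio of group means, both shVPS35 over vector, for the 235 lower genes with a mean above 0 in both groups. The 7 NF-kB target genes (red) lie near the line of equal values, with the widest gaps for CXCL8, at -2.74 on the y axis and -2.47 on the x axis, and BIRC3, at -1.27 and -1.52.

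No single sample carried the low values. Among the shVPS35 samples, replicate 2 was lowest in 4 genes (IL1A, CXCL2, ICAM1 and RELB) and highest in 2 (IL1B and BIRC3). Among the vector samples, replicate 3 was highest in IL1A, IL1B and BIRC3 and lowest in the other 4 genes.

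Most other genes on the pathway lists used here were absent from the table of changed genes. Of 112 genes on 12 lists of NF-kB subunits, inhibitors, kinases, ligands, receptors, targets and AP-1 subunits, 9 were in the table, 8 lower and 1 higher. Apart from the 7 members, 2 of 105 genes were listed, or 1.90%, against the 2.65% listed among all genes tested. The first share counts every gene on the lists, tested or not, so the 2 shares have unlike bases. RELB was the only one of 5 subunits in the table, and the genes of RELA, REL, NFKB1 and NFKB2 were not in it. Of 12 inhibitors and feedback regulators only BIRC3 was listed, so NFKBIA, TNFAIP3 and TRAF1 were not, and of 19 kinases and adaptors none was. From the IL-1 family 2 of 10 ligands and antagonists were listed, and none of 10 receptors and processing genes. Among 11 chemokines CXCL2 and CXCL8 were listed, while CXCL1, CXCL3, CCL2 and CCL20 were not, nor were the receptor genes CXCR1 and CXCR2. None of the 10 TNF family genes on the lists and none of 12 further cytokine and inflammatory targets, IL6, CSF2 and PTGS2 among them, was listed. The lists do not cover these families in full. Of the chemokine and TNF family genes outside them, found by symbol after the values were seen, the table holds the chemokine gene CCL26 and the death receptor gene TNFRSF21, both lower. CCL26 averaged 3.71 ± 0.904 in shVPS35 cells and 9.31 ± 2.18 in vector cells, and TNFRSF21 averaged 2.43 ± 0.259 in shVPS35 cells and 5.37 ± 0.140 in vector cells (SD, n = 3 each), with limma adjusted p-values of 0.00139 and 1.4e-04. Targets of other kinds were not searched for beyond the lists. Listed genes such as IER3 and EBI3, both lower (authors' log2 fold change -1.75 and -2.74), and CD83, higher (1.32), were therefore not counted. Genes outside the table failed the authors' limits or were left untested, and their levels were not analysed here.

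The listed genes on these lists that are not members were FOSL1 and ICAM5. FOSL1 encodes the AP-1 subunit FRA1 and had 14.42, 11.72 and 14.73 in the shVPS35 samples against 28.73, 28.63 and 29.80 in the vector samples, with no overlap (log2(value + 1) difference -1.05 ± 0.09, SE; limma adjusted p = 2.5e-05). It was 1 of 8 AP-1 subunit genes, and FOS, JUN and JUNB were not listed. ICAM5, a relative of ICAM1 known from neurons of the forebrain, went the other way. It had 0.73, 0.36 and 0.65 in the shVPS35 samples against 0.18, 0.19 and 0.09 in the vector samples, with no overlap (0.45 ± 0.11, SE; limma adjusted p = 0.00472). ICAM5 is 3.37 kb downstream of ICAM1 on the same strand, with 1 protein-coding gene between them.

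Markers of other cell types were read beside these genes, because IL1B and CXCL8 are also abundant in myeloid cells and ICAM1 in endothelium. All 6 samples are titled as the cell line MKN28, and the titles name no other cell type. Of 7 monocyte and macrophage markers only CD68 was listed, at 16.5 to 17.3 in shVPS35 samples and 54.4 to 57.0 in vector samples. PTPRC, CD14 and CSF1R were not in the table. None of the 5 neutrophil and 6 lymphocyte markers chosen was listed. Of 5 endothelial markers CDH5 was, at 0.42 to 0.66 in shVPS35 samples and 0.83 to 1.25 in vector samples. Among 6 fibroblast markers DCN and LUM were listed and went opposite ways. DCN was at 2.98 to 5.41 in shVPS35 samples and 1.00 to 1.97 in vector samples. LUM was at 0.33 to 0.99 in shVPS35 samples and 0.69 to 1.52 in vector samples, where the groups overlap (limma adjusted p = 0.0562). None of these listed markers was at 0 in any sample. The marker lists are short, and other genes known from leukocytes were in the table. By the authors' log2 fold change, IL7R (-3.27), IL2RG (-2.65) and CD177 (-2.55) were lower and PRTN3 (1.55) was higher, among others. The part of all these genes in the results was not tested.

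For each member the gene with the nearest profile was found among 311 other listed genes with a mean of 1 or more in a group, by the root mean square distance over the 6 samples of log2(value + 1) set relative to the vector mean. TRIM54 was nearest to IL1A at a distance of 0.05, RNF223 to IL1B at 0.10 and NKD2 to CXCL8 at 0.11. The added 1 compresses low values, so a short distance does not mean an equal fold. RNF223 averaged 1.32 in shVPS35 cells and 2.72 in vector cells, against 0.0800 and 0.777 for IL1B. NKD2 averaged 0.573 in shVPS35 cells and 1.47 in vector cells, against 0.133 and 0.737 for CXCL8. TINAGL1 was nearest to RELB at 0.08, DUSP5 to BIRC3 at 0.10, and the noncoding gene GAS6-DT to ICAM1 at 0.11. CXCL2 had the most distant neighbour, the metallothionein gene MT1X, at 0.19. Of these, DUSP5, a nuclear phosphatase of ERK, averaged 4.53 ± 0.206 in shVPS35 cells and 14.2 ± 0.436 in vector cells (SD, n = 3 each), and TRIM54 averaged 0.697 ± 0.186 in shVPS35 cells and 2.15 ± 0.108 in vector cells. The members were not candidates for each other, and ICAM5 fell below the limit on the mean. FOSL1 was thus the only gene of the pathway lists that could have been found. It was not among the 7 nearest genes, which says little, and had rank 3 for CXCL2 at 0.23. TNFRSF21, outside the lists, had rank 2 for RELB at 0.11.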

How the data were processed

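RNA was sequenced from 6 samples, and per the labels' protocols it was extracted with TRIzol and treated with DNase I. The submitters' processing notes name fastp, HISAT, RSEM and the build GRCh38.p13, without roles or versions. The deposited expression signal has 2 decimals and no named unit. The fold ratio, its log2 value, the p-value and the adjusted p-value are the authors' own, per the file headers. Dividing p by adjusted p showed that 16063 genes had been tested, since this number gave a whole-number rank within 0.01 for 387 of the 422 genes whose adjusted p was above 0.

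Column names gave the samples. The members and gene lists were chosen with earlier results of these data known. limma 3.58.1 (trend and robust variance, statmod 1.5.0, R 4.3.3) was run on log2(value + 1) over all 426 listed genes with group as the only term and no filter, since a low gene could pass a filter only through the group where it is high. P-values were adjusted by Benjamini and Hochberg over those genes at a threshold of 0.05. In values simulated for this comparison over 426 genes, 96% of 100 genes changed by a fold of 2 on value + 1, 100% of 100 changed by a fold of 4 and 3.98% of 226 unchanged genes were called. Other values used Python 3.11.15, numpy 2.4.6, pandas 2.3.3 and scipy 1.17.1. Gene positions are from GENCODE 29 on GRCh38, where 421 of 426 identifiers matched. Named genes were VPS35, the members, every listed gene of the lists and the nearest profile of each member. EPGN, EREG, AREG, CCL26 and TNFRSF21 were added after their values were seen, as were IER3, EBI3, CD83, IL7R, IL2RG, CD177 and PRTN3.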

Additional observations from a re-analysis of the deposited data

How the results depend on the processing

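All 7 members stayed lower and past the adjusted p of 0.05 with pseudocounts of 0.1 and 5, with samples centred on the median gene, without the variance trend and robust step, and when any 1 of the 6 samples was left out (limma). In the unfiltered fits on all 6 samples 94.6% to 96.5% of all listed genes passed. With a sample left out 91.1% to 93.9% did, so the members' count is close to that of the whole table. A filter of 1 or more in at least 3 samples removed IL1B and CXCL8 and kept 5 members, all 5 past the threshold. IL1A passed this filter only through the vector samples, where it is high (1.20 to 1.34, against 0.10 to 0.30 in shVPS35 samples), so its result there is no added support. All 292 genes kept by this filter passed (100%), so the members could not differ from the rest. A filter on a mean of 5 or more over all samples left 124 genes and 2 members, ICAM1 and BIRC3, both past the threshold, so that 123 genes passed, 71 lower and 52 higher, because fewer genes were tested. Leaving out samples gave 388 to 400 genes past the threshold. The log2(value + 1) difference of BIRC3 ran from -1.54 to -1.38 when a sample was left out, and that of CXCL2 from -1.31 to -0.77. The size depended on the pseudocount. With 0.1 and 5 the difference was -1.76 and -0.16 for CXCL8, and -1.51 and -1.27 for BIRC3.

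Replicates with the same number did not deviate together across the 426 genes (correlations of -0.01, -0.04 and 0.03 for numbers 1, 2 and 3), so the numbers were not taken as pairs. With the replicate block 405 genes passed, against 408 without it, and all 7 members stayed past the threshold. The values carry no read counts, so counting error behind the low values of IL1B and CXCL8 could not be given, and effects of the hairpin RNA other than VPS35 depletion cannot be told apart.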

Other observations

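Apart from the members themselves, 4 of the 121 protein-coding genes within 500 kb of the 7 members were in the table of changed genes, EPGN, EREG and AREG near CXCL2 and ICAM5 near ICAM1. This share is 3.31%, beside the 2.65% listed among all genes tested. It counts every annotated protein-coding neighbour, tested or not, so the bases of the shares differ. The pooled share also hides that the listed neighbours were uneven, with 4 of 13 near CXCL2, the member CXCL8 among them. No gene near BIRC3 or RELB was listed. EPGN, EREG and AREG encode ligands of the EGF receptor family, and all 3 were lower in shVPS35 cells, with groups that did not overlap, as in 93.4% of all listed genes. EPGN averaged 4.78 ± 2.23 in shVPS35 cells and 21.9 ± 3.63 in vector cells, and EREG averaged 3.44 ± 0.216 in shVPS35 cells and 11.1 ± 1.11 in vector cells (SD, n = 3 each). AREG had 2.15, 1.45 and 1.46 in the shVPS35 samples against 2.60, 4.61 and 3.65 in the vector samples. Such genes share a stretch of chromosome 4 with the chemokine genes, and whether position bears on their change was not tested.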
